A study of Mus musculus with 2 samples.

Results

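The histone cluster genes are the 67 of 32285 genes in the deposited matrices whose symbols begin with Hist1h, Hist2h, Hist3h or Hist4h. They encode the linker histone H1 and the core histones H2A, H2B, H3 and H4. Of the 67, 54 lie on mouse chromosome 13, 10 on chromosome 3, 2 on chromosome 11 and 1 on chromosome 6 (GRCm38). The data are 1 library of wild-type (WT) and 1 library of Phf6 knockout (KO) mouse bone marrow cells, profiled as single cells with a 10x Genomics 3′ kit. Marrow cells of both genotypes received a vector carrying the RUNX1-S291fs mutant with GFP and were then transplanted into recipient mice. The GFP+ Lin- cells (vector-positive, without surface markers of mature lineages) were sorted from the recipients' marrow 8 weeks later. Both groups therefore carry the RUNX1 mutant and differ in Phf6, and neither is an untransduced control. How many mice stand behind each library is not known from the labels. With 1 library per genotype, library and genotype cannot be told apart, no test across mice was possible, and every interval covers counting error only.

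Most histone cluster genes are replication-dependent: their mRNA is made while DNA is copied and supplies histones for the new chromatin. Those mRNAs usually end just after a conserved stem-loop, bound by the protein SLBP, in place of a poly(A) tail. Some cluster genes are also read through to a downstream polyadenylation site, which gives polyadenylated mRNA that can persist in cells that are not dividing. The 3′ kit primes on poly(A), so the values below are polyadenylated or internally primed molecules, and were not compared between genes as total RNA.

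The WT and KO libraries held 5287 and 5260 barcodes with 131667969 and 120408100 UMIs (unique molecular identifiers, counted RNA molecules). After filtering, 4503 WT and 4723 KO cells with medians of 24843 and 21437 UMIs were compared. The libraries shared 10 barcodes, 7 of them among the kept cells. The targeted gene Phf6 stood at 41.7 UMIs per 1000000 (CPM, counts per 1000000) in WT and 20.6 in KO cells, a log2 ratio of KO over WT of -1.01 (95% interval -1.09 to -0.94). The labels do not say which part of Phf6 was deleted, so these 3′ counts may lie outside it. Clusters were named only from marker genes, with names that end in "like". The sort was for lineage-negative cells, yet 1 cluster of 70 WT and 51 KO cells carried all 8 B cell markers above the level of other cells. Among all cells were also a plasma cell-like cluster, cluster 18, of 54 WT and 0 KO cells, led by immunoglobulin genes, and a T or NK cell-like cluster of 5 WT and 9 KO cells.

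The 3′ ends of the gene models are shown first, since the kit reads polyadenylated 3′ ends. The stem-loop, 16 bases with a 6-base stem and a 4-base loop, is in capitals in these RNA-strand windows of 26 bases from GENCODE M21 (GRCm38). The first 3 genes were in the S phase group, the next 3 were between the groups, and the last 3 were lower in S-high than in cycle-low cells, by the split given below.
Hist1h2ab, chr13:23751567-23751592, plus strand: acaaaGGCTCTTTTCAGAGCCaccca
Hist1h2ae, chr13:23570663-23570688, minus strand: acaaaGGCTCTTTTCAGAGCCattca
Hist1h3c, chr13:23745042-23745067, minus strand: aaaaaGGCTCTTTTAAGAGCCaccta
Hist1h4d, chr13:23581945-23581970, plus strand: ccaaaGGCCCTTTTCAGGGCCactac
Hist1h1e, chr13:23621777-23621802, minus strand: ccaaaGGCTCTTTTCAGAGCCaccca
Hist3h2ba, chr11:58949344-58949369, plus strand: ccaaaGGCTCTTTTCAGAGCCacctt
Hist1h2ac, chr13:23683472-23683497, minus strand: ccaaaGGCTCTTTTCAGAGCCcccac
Hist1h1c, chr13:23739507-23739532, plus strand: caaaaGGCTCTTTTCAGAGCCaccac
Hist3h2a, chr11:58955167-58955192, plus strand: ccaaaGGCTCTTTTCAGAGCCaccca

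The stem-loop was thus present on both sides of the split, and the length of annotated sequence after it overlapped between the groups. Of the S phase members, the Hist1h2ab model ran on for 11 bases after the stem-loop, that of Hist1h3c for 74 and that of Hist1h2ae for 151, with a polyadenylation signal at its end. Of the non-cycling members, the models of Hist1h4h and Hist1h2bg ran on for 46 and 155 bases, and those of Hist1h1c, Hist3h2a and Hist1h2ac for 840, 1643 and 2010. The Hist1h2ap model ended 3 bases after its stem-loop and had no polyadenylation signal in its last 50 bases, and Hist1h2ap was the member with the most UMIs. The annotated 3′ UTR had a median of 69.5 bases in the S phase members, 109 in those between and 880 in the non-cycling members, beside 335 in other coding transcripts. Members were taken by gene, with the longest 3′ UTR and a match in any transcript, while other coding transcripts were counted singly. More than 200 bases followed the stem-loop in 2 S phase (Hist1h2bh and Hist1h3f), 9 between and 7 non-cycling members. A stem-loop was found in 16 of 26, 19 of 25 and 9 of 11 members of the 3 groups, and in 0.542% of 58686 other coding transcripts. No 3′ UTR (2 bases at most) is annotated for 9, 4 and 0 members of the groups, so a stem-loop could not be found there. Hist1h2bc, with an annotated 3′ UTR of 742 bases, held no match. A polyadenylation signal (AATAAA or ATTAAA) lay in the last 50 bases of 2, 7 and 6 members of the groups and of 49.3% of other transcripts.

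Histone genes of the clusters often stand head to head, and 12 such pairs had starts at most 500 bases apart in the annotation. Of the 10 pairs with both genes measured, 4 held genes of the same group. The promoter windows below (RefSeq, GRCm38.p6, 250 bases before to 50 after the start) show 1 pair in the same group and 1 split pair. In capitals, on either strand, are the motifs TATAAA (the TATA box), CCAAT (the CCAAT box) and ATTTGCAT (the octamer). The Hist1h2ac window also spans the annotated start of Hist1h2bc, 251 bases away on the opposite strand, and both genes were non-cycling. The Hist1h2ae window shares 279 bases with that of Hist1h2bg on the opposite strand, and Hist1h2ae was an S phase gene while Hist1h2bg was non-cycling.
Hist1h2ac, chr13:23683910-23684209, minus strand: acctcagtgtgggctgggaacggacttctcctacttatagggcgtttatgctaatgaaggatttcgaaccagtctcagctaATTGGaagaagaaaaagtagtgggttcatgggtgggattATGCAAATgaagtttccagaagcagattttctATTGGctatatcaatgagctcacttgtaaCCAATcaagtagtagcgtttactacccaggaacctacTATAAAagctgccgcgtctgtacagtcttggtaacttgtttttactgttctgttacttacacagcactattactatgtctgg
Hist1h2ae, chr13:23571171-23571470, minus strand: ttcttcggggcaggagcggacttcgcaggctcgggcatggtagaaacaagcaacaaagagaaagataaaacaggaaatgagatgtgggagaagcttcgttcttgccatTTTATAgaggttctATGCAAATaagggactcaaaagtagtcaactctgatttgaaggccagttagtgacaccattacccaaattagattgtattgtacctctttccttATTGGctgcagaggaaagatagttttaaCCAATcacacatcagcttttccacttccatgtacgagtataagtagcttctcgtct

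Of the 67 members, 61 matched an entry of the promoter table, and Hist2h2be, Hist2h4, Hist1h2ap, Hist1h3f, Hist1h2bc and Hist1h3a did not. TATAAA was present in 35 of the 61 windows, CCAAT in 52 and the octamer in 13, beside 13.5%, 37.3% and 1.70% of 32788 other promoters of the same length. The octamer was in 7 of 24 S phase windows, 1 of 22 between and 3 of 10 non-cycling windows, the latter being Hist1h2ac, Hist3h2a and Hist1h2bg. In the same order, CCAAT was in 22 of 24, 17 of 22 and 8 of 10 windows and the TATA box in 16, 13 and 4. A motif match describes these letters in the window and shows no bound factor.

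The members were split by their level in cells high for S phase genes over that in cells low for both cycle lists. The S list holds 39 replication genes such as Mcm2, Pcna and Rrm2, and the G2/M list 46 mitotic genes, with no histone gene in either. After every cell was thinned to 5000 UMIs, cells with at least 23 UMIs of the S list were called S-high, and cells with at most 8 UMIs of each list cycle-low. In WT 1008 of 4260 cells were S-high (23.7%, exact 95% interval 22.4 to 25.0), and in KO 935 of 4524 (20.7%, 19.5 to 21.9). Without thinning the shares were 21.3% and 18.8%. The cycle-low share was 25.0% (23.7 to 26.3) in WT and 34.0% (32.6 to 35.4) in KO. The classes are ranges of a score, and 473 WT and 441 KO cells lay near the S-high boundary.

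In both libraries 26 members were at least 4-fold higher in S-high than in cycle-low cells, and these are called the S phase members. Another 11 were under 2-fold in both libraries with at least 10 CPM in cycle-low cells, the non-cycling members. The split took no account of cells high for the G2/M list alone, where some of these 11 were higher, as given below. All 26 S phase members were at least 4-fold above cycle-low cells there too, in both libraries. Cycle-low cells are low for both lists, so the fold does not set S phase apart from the rest of the cycle. Genes of the G2/M list had a median fold of 13.5 in WT and 8.67 in KO, beside 7.94 and 8.17 for the S list. The name S phase members is that of the split only. The remaining 25 with at least 50 UMIs in each library lay between, and 5 had too few UMIs. Among 13721 genes the S phase criterion held for 2.73% and the non-cycling criterion for 57%, but these values chose the groups and support nothing. Just inside the 4-fold boundary lay Hist1h2bb (5.17-fold in WT, 4.49 in KO), and just outside it Hist1h2bp (5.22, 3.80), Hist1h2bn (3.99, 6.23) and Hist1h4d (3.98, 3.22). Near the 2-fold boundary, Hist1h2br (1.89, 1.88) was inside and Hist1h4c (1.98, 2.25) outside.

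**Figure D1:**
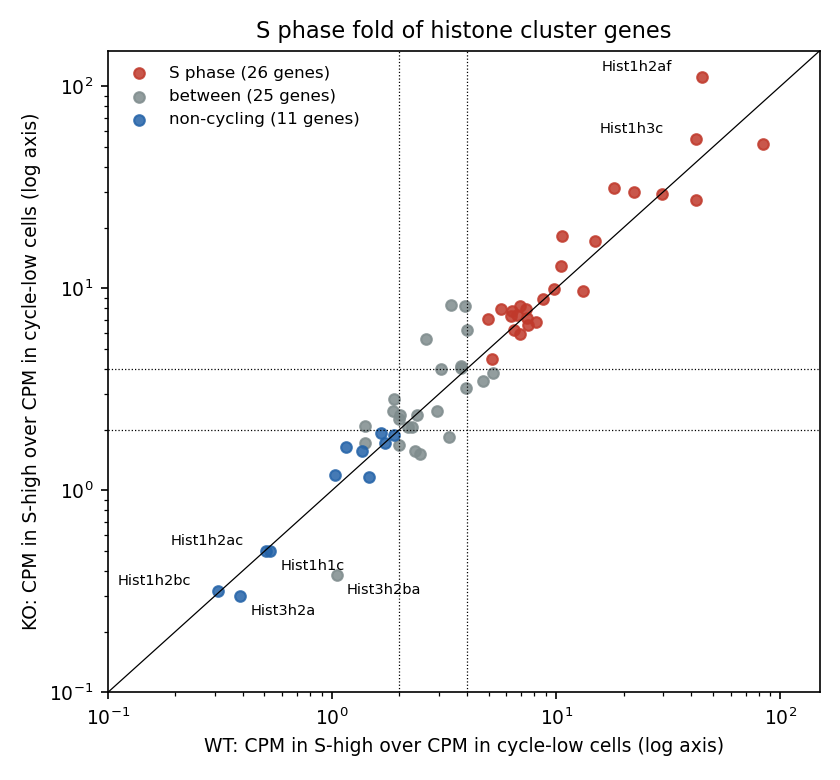
Level in S-high over level in cycle-low cells for 62 histone cluster genes, WT on the x axis and KO on the y axis (both log axes), coloured by group, with dotted lines at 2-fold and 4-fold. Hist1h2bc, Hist1h2ac, Hist1h1c and Hist3h2a lie below 1 in both libraries, and Hist3h2ba lies below 1 in KO only.

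The S phase members comprised 2 H1, 10 H2A, 5 H2B, 6 H3 and 3 H4 genes. The linker histone gene Hist1h1b (chr13:21779883-21780625) went from 36.2 CPM in cycle-low to 805 in S-high WT cells, and from 27.8 to 834 in KO cells. Hist1h1a, the other H1 gene of the group, had S phase folds of 8.72 in WT and 8.91 in KO. Among H2A genes, Hist1h2ap (chr13:21833026-21833507) went from 200 to 1968 CPM in WT and from 165 to 1641 in KO cells. Hist1h2ae (chr13:23570517-23571220) went from 114 to 845 CPM in WT and from 102 to 732 in KO. Hist1h2ab (chr13:23751126-23751598) had folds of 29.6 and 29.5, and Hist2h2ac of the chromosome 3 cluster (chr3:96220361-96220880) 8.17 and 6.79. The H3 genes Hist1h3c (41.9 and 54.6) and Hist1h3b (84.0 and 52.0) were near 0 in cycle-low cells, at 0.38 to 2.11 CPM. The H2B genes had folds from 4.49 for Hist1h2bb in KO to 13.2 for Hist1h2bm in WT.

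The non-cycling members comprised 2 H1, 2 H2A, 4 H2B, 1 H3 and 2 H4 genes, and 4 of them were lower in S-high than in cycle-low cells of both libraries. The H2B gene Hist1h2bc (chr13:23684199-23692908) stood at 538 CPM in cycle-low and 167 in S-high WT cells, and at 672 and 213 in KO cells. Its head-to-head neighbour, the H2A gene Hist1h2ac (chr13:23681467-23683948), had 199 and 101 CPM in WT and 186 and 93.0 in KO. The linker histone gene Hist1h1c (chr13:23738808-23740367) had 190 and 101 CPM in WT against 218 and 109 in KO. Hist3h2a (chr11:58954685-58956830), the H2A gene of the small chromosome 11 cluster, was at 30.5 and 11.9 CPM in WT and at 45.1 and 13.5 in KO. The other 7 had S phase folds from 1.03 to 1.93: Hist1h1d, Hist1h4h, Hist1h2be, Hist1h2bg, Hist1h2br, Hist1h3d and Hist4h4 (chr6:136801553-136804415).

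The members between the groups were led in UMIs by the H4 gene Hist1h4d (chr13:23581598-23582735), at 229 CPM in WT and 269 in KO cells, and the H1 gene Hist1h1e (chr13:23620629-23622558), at 226 and 279. Hist1h4i, Hist1h3e, Hist1h4c and Hist2h2aa1 followed, with S phase folds from 1.41 to 4.01. Hist3h2ba (chr11:58948920-58949533), an H2B gene beside Hist3h2a, was in this group on its level alone: it stood below 10 CPM in WT cycle-low cells, with folds of 1.05 in WT and 0.38 in KO. The 5 members with too few UMIs were Hist1h1t (39 UMIs in WT, 28 in KO), Hist1h2bq (10, 12), Hist2h2aa2 (2, 7), Hist1h2aa (0, 1) and Hist1h2ba (0, 0). Hist1h1t, Hist1h2aa and Hist1h2ba are known from the male germ line.

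Near-identical copies make some of these counts uncertain. Of the last 300 bases of a member's transcript, the share of 31-base words found in another member had a median of 68% in the S phase, 40.3% in the between and 0% in the non-cycling group. It was 100% for Hist1h2ap, shared with Hist1h2ao, for Hist1h2br with Hist1h2bq, and for Hist2h2aa1 with Hist2h2aa2. It was 0% for Hist1h2bc, Hist1h2ac, Hist1h1c, Hist3h2a and Hist1h1b.

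High S list and high S phase histone levels did not fully coincide. In 65 WT and 56 KO cells with a high S list and a low G2/M list, the S phase members together stood at 591 and 510 CPM, beside 454 and 408 in cycle-low cells. In S-high cells with an intermediate G2/M list (613 WT and 598 KO cells) the sums were 2241 and 2010 CPM. They were highest, at 8485 and 9241 CPM, in the 330 WT and 281 KO cells high for both lists (32 or more G2/M UMIs of 5000). Cells high for the G2/M list alone (610 and 598) still held 6354 and 6891 CPM. In the cells with a high S list and a low G2/M list no S phase member was 4-fold above cycle-low cells in both libraries. Hist1h3b was in WT (4.81, at 1.82 CPM) and Hist1h2ah in KO (4.87, at 2.23 CPM), both on levels near 0. The members were chosen on S-high over the same cycle-low cells, so these values describe the choice in part.

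The non-cycling members together went from 1192 CPM (WT) and 1354 (KO) in cycle-low cells to 454 and 536 in cells with a high S list and a low G2/M list, where 9 of 11 were lower in both libraries. In cells high for the G2/M list alone their sum was 1524 and 1731 CPM, above the cycle-low level. In these cells 4 of the 11 were at least 2-fold above the cycle-low level in both libraries. They were Hist1h2br (3.96-fold in WT and 3.81-fold in KO), Hist1h2be (2.77 and 2.90), Hist1h2bg (2.73 and 2.86) and Hist1h1d (2.26 and 3.04). Hist1h2bc (0.93 and 0.87) and Hist1h1c (0.86 and 0.94) were below it. Hist1h2ac was above it in both libraries (1.31-fold in WT), and Hist3h2a in WT but not in KO (1.12 and 0.69). In cells high for both lists, Hist1h2bc (0.35 and 0.42), Hist1h2ac (0.63 and 0.78), Hist1h1c (0.77 and 0.86) and Hist3h2a (0.61 and 0.56) were below the cycle-low level in both libraries.

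**Figure D2:**
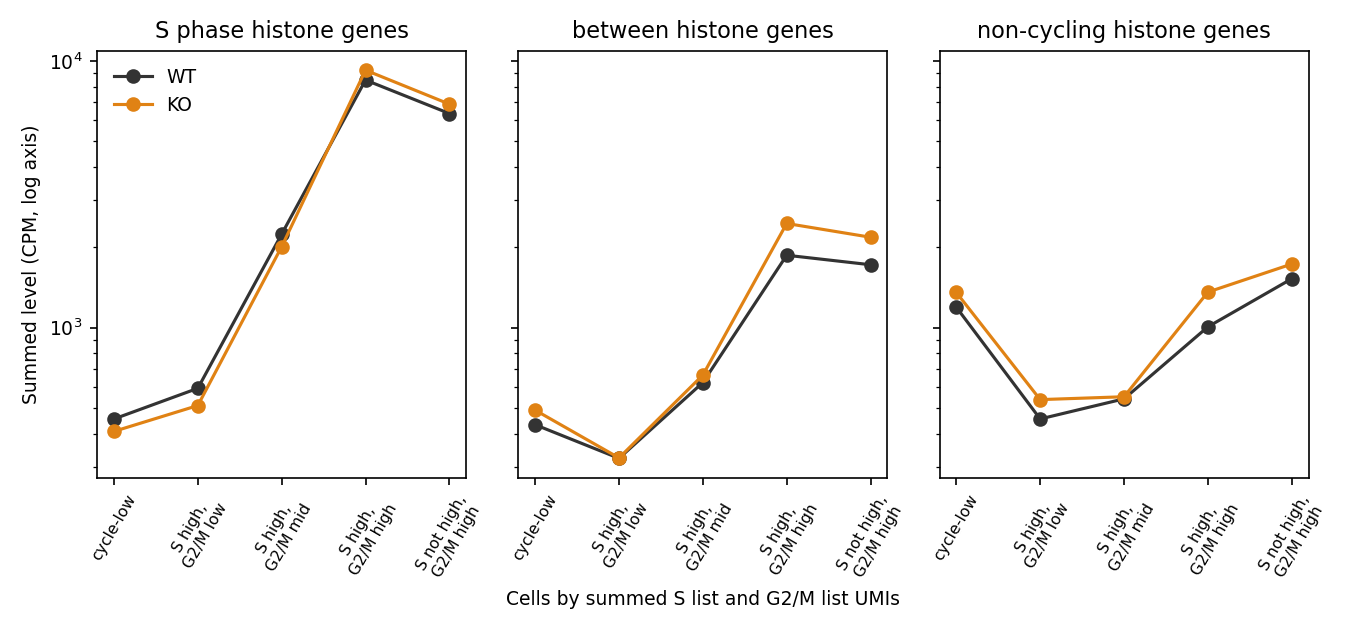
Summed level in CPM (log axis) of the S phase, between and non-cycling histone genes in 5 sets of cells ordered by their S and G2/M list UMIs, for the WT and the KO library. The S phase sum is highest where both lists are high, and the non-cycling sum is lowest where the S list is high and the G2/M list low.

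The first comparison between genotypes was over all cells kept after filtering, called all cells here. The mix of the classes below differed between the libraries. HSC/MPP-like (stem cell and multipotent progenitor) cells numbered 547 in WT and 908 in KO, and erythroid-like cells 263 and 91. Ratios over all cells include this mix, and its part in them was not tested. The 67 members together held 4887 CPM in each library, a log2 ratio of 0.00 (-0.01 to 0.01), while the summed levels of the groups differed in different directions. The S phase members made up 3020 CPM in WT (Poisson 95% interval 3010 to 3030) and 2782 in KO (2772 to 2792), a log2 ratio of -0.12 (-0.13 to -0.11). The S list and the G2/M list both had a ratio of -0.13. The between members went from 885 to 989 CPM (0.16, 0.15 to 0.17). The non-cycling members went from 981 CPM (975 to 987) to 1116 (1110 to 1122), a log2 ratio of 0.19 (0.17 to 0.20). Grouping members by a single boundary at 2-fold gave -0.05 for the S phase sum, and DESeq2 size factors gave -0.20 for it and 0.10 for the non-cycling sum. Without cluster 18, which held WT cells alone, the ratios were -0.14 and 0.17. No member at a mean of 10 CPM or more was 1.5-fold higher or lower, of 44 such members, beside 2.05% of 8585 genes higher and 1.25% lower. The median ratio was 0.06 over the 20 S phase, 0.02 over the 13 between and 0.11 over the 11 non-cycling members at that level, and 0.06 over all genes.

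The lower S phase sum over all cells came from 2 H2A genes of many UMIs. Hist1h2ap went from 1318 to 1099 CPM (-0.26, -0.27 to -0.25) and Hist1h2ae from 547 to 481 (-0.18, -0.20 to -0.17). By family, the S phase H2A sum was 2184 in WT and 1921 in KO (-0.18), while that of H1 was 515 and 526 (0.03), that of H2B had a ratio of 0.06, that of H3 0.08 and that of H4 -0.09. Hist1h1b stood at 442 and 458 CPM (0.05, 0.03 to 0.07) and Hist1h2ab at 127 and 130 (0.03, -0.01 to 0.06). Hist2h2ac, with 81.4 and 91.4 CPM, had 0.17 (0.13 to 0.21), Hist1h1a 72.9 and 68.2 CPM with -0.10 (-0.14 to -0.05), and Hist1h2af 24.5 and 30.8 CPM with 0.33 (0.26 to 0.40). Of the 20 members at 10 CPM, 13 were above 0.

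The higher non-cycling sum came mostly from Hist1h2bc, which went from 344 CPM (340 to 347) in WT to 440 (437 to 444) in KO, a log2 ratio of 0.36 (0.34 to 0.38). Its neighbour Hist1h2ac differed in the opposite direction, from 163 CPM (161 to 165) to 144 (142 to 146), a ratio of -0.18 (-0.21 to -0.15). Hist1h1c went from 133 to 154 CPM (0.21, 0.18 to 0.25), Hist1h4h from 57.1 to 72.3 (0.34, 0.29 to 0.39) and Hist3h2a from 19.9 to 26.4 (0.41, 0.33 to 0.49). Hist1h1d had 97.8 and 105 CPM (0.11), Hist1h2be 51.8 and 60.6 (0.22), and Hist1h2bg 41.1 and 40.3 (-0.03). Hist1h3d, at 25.5 and 21.8 CPM (-0.22, -0.30 to -0.15), was lower in KO with Hist1h2ac. Within cycle-low cells Hist1h2bc kept a ratio of 0.32 (0.28 to 0.36) and within S-high cells 0.35 (0.30 to 0.40). Of the members between, Hist1h1e had 0.30 (0.28 to 0.33), Hist1h4d 0.23 (0.21 to 0.26), Hist1h3e 0.21, Hist1h4i -0.16 and Hist2h2aa1 -0.19. Hist3h2ba, at 7.26 and 11.3 CPM, had the highest ratio of any member with 50 UMIs in each library, 0.64 (0.52 to 0.77), under the 10 CPM minimum in WT and in the mean.

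**Figure D3:**
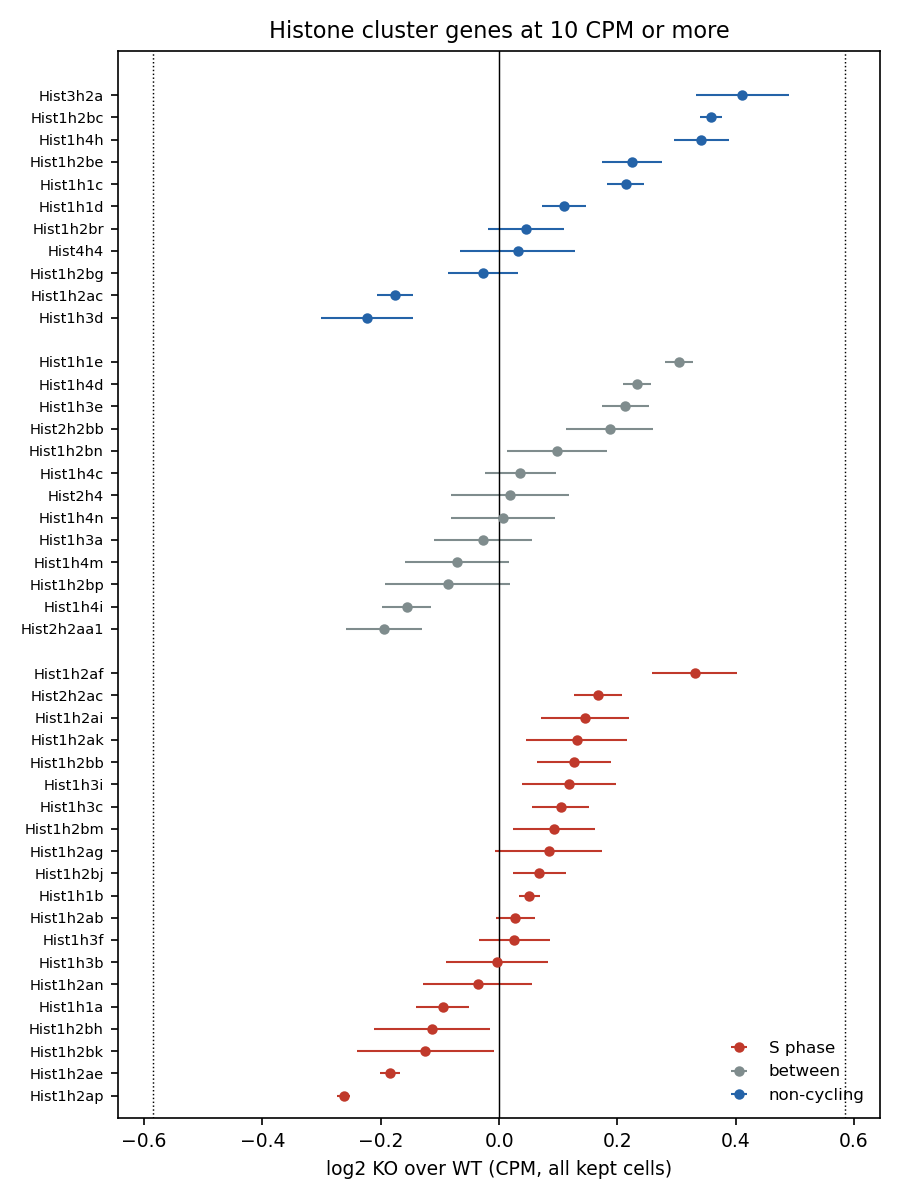
The log2 ratio of KO over WT over all kept cells for the 44 histone cluster genes at a mean of 10 CPM or more, with exact 95% counting intervals, by group. All points lie within 1.5-fold, and Hist1h2bc and Hist1h2ac, neighbours on chromosome 13, lie on opposite sides of 0.

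Over the 18 clusters with at least 50 cells in each library, Hist1h2ac was below 0 in 14 of the 17 clusters with at least 50 UMIs, with 11 intervals below 0 and 2 above. Hist1h2bc was below 0 in 4 of 18, with 1 interval below 0 and 12 above. Hist1h2ap was below 0 in 15 of 18 (14 intervals below, 2 above), and Hist1h1e was above 0 in 14 of 17 (13 intervals above, 1 below). The S phase sum had an interval below 0 in 12 clusters and above 0 in 4, and the non-cycling sum below 0 in 6 and above 0 in 7. Clusters are cells of the same 2 libraries and are not replicates.

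The HSC/MPP-like cells (haematopoietic stem cells and multipotent progenitors, 547 WT and 908 KO cells) had lower S phase histone levels in KO. The S phase sum was 5488 CPM in WT and 3727 in KO cells, a log2 ratio of -0.56 (-0.57 to -0.54), and none of its 21 members at 10 CPM was above 0. Of these members 4 were at least 1.5-fold lower (Hist1h2ap, Hist1h2ag, Hist1h2ah and Hist1h2bk), as were 2 of 18 between (Hist2h2aa1 and Hist1h2bp) and 0 of 11 non-cycling members, beside 1.63% of 8671 genes. No member was 1.5-fold higher, beside 3.85% of genes. Hist1h2ap went from 2344 to 1476 CPM (-0.67), Hist1h2ag from 32.3 to 20.2 (-0.68) and Hist2h2aa1, between the groups, from 56.0 to 35.5 (-0.66). The S list had a ratio of -0.29 and the G2/M list -0.33 in the same cells. The S-high share of the class was 25.0% (21.4 to 28.9) in WT and 16.4% (14.0 to 19.0) in KO, or 23.4% and 15.6% without thinning.

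The class joined cluster 0 (314 WT and 658 KO cells), low for the G2/M list (1656 and 1431 CPM), with cluster 8 (233 and 250 cells), high for it (12558 and 13564 CPM). Their mix differed between the libraries. The make-up of cluster 0 differed too: after thinning, 55.2% of its WT and 67.3% of its KO cells were cycle-low. At resolution 2 of the clustering, an HSC/MPP-like cluster marked by Dntt, Iigp1 and Ifi44 counted 73 cells in WT but 434 in KO. Its overlap with cluster 0 was not tested. Within cluster 0 the S phase sum was 591 and 453 CPM (-0.38, -0.45 to -0.32). Within cluster 8 it was 9229 and 8718 (-0.08, -0.10 to -0.07). Within the class's S-high cells the ratio was -0.19 (-0.22 to -0.17), and none of 23 members was past 1.5-fold. With clusters 0 and 8 weighted alike, the ratio was -0.23. It was -0.25 under stricter cell filters, which changed the class to 876 WT and 1025 KO cells. When cells were clustered without the S, G2/M and histone supply lists it was -0.04, in a class changed to 320 WT and 723 KO cells. The non-cycling sum of the class was 1620 CPM in WT and 1610 in KO (-0.01, -0.03 to 0.02). Hist1h2bc stood at 625 and 700 CPM (0.16, 0.12 to 0.20), Hist1h2ac at 237 and 205 (-0.21, -0.28 to -0.14) and Hist1h1c at 199 and 208 (0.06, -0.01 to 0.14).

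In monocyte-like cells (863 WT and 1131 KO) the difference with the largest size was in Hist1h2ac, from 213 to 132 CPM, a log2 ratio of -0.70 (-0.75 to -0.64). It was the 1 non-cycling member of 11 at least 1.5-fold lower, beside 0.693% of 8085 genes, and no member was 1.5-fold higher, beside 1.1% of genes. The ratio of Hist1h2ac was -0.58 (-0.80 to -0.37) in cycle-low and -0.69 (-0.80 to -0.58) in S-high cells of the class. Hist1h3d went from 37.8 to 27.7 CPM (-0.45). Hist1h2bc stood at 323 and 338 (0.07, 0.03 to 0.11) and Hist1h1c at 129 and 121 (-0.09, -0.16 to -0.02). The non-cycling sum was 1055 and 967 CPM (-0.13, -0.15 to -0.10). The S phase sum was 3827 and 3375 CPM (-0.18, -0.19 to -0.17), with Hist1h2ae at -0.37 and Hist1h2ap at -0.31. Hist1h1e (242 and 285 CPM, 0.24) and Hist1h2af (0.23) were on the other side of 0. The S list had -0.06. The class joined cluster 1, cluster 5 and cluster 11, whose S phase ratios were -0.09, -0.15 and -0.04 and whose non-cycling ratios were -0.09, -0.17 and -0.02. Cluster 11, with an S phase sum of 11415 CPM in WT and 11126 in KO, held most of the S phase UMIs of the class. With doublets kept the S phase ratio was -0.08 and the non-cycling ratio -0.05.

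Megakaryocyte-like cells (504 WT and 502 KO) had higher non-cycling levels in KO, 1424 and 1814 CPM, a log2 ratio of 0.35 (0.32 to 0.38). Of 11 non-cycling members, 2 were at least 1.5-fold higher, as was 1 of 13 between members, beside 1.22% of 8311 genes, and none was 1.5-fold lower, beside 1.11%. Hist1h1c went from 195 to 340 CPM (0.80, 0.72 to 0.88) and Hist3h2a from 46.2 to 109 (1.23, 1.07 to 1.39). Hist3h2ba, next to Hist3h2a, went from 11.3 to 48.3 CPM (2.10, 1.81 to 2.41). Hist1h2bc stood at 615 and 768 (0.32, 0.27 to 0.37) and Hist1h2ac at 189 and 173 (-0.12, -0.22 to -0.03). Hist1h4i went from 122 to 88.0 CPM (-0.47, -0.60 to -0.34). The S phase sum was 2398 and 2069 CPM (-0.21, -0.24 to -0.19), with no member past 1.5-fold, and the S list had -0.18.

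The class joined clusters 4 and 13, and the larger ratios were in cluster 13 (157 WT and 164 KO cells), whose cells held medians of 2809 and 3932 UMIs and 0.46% and 0.42% mitochondrial UMIs. Cluster 4 (347 and 338 cells) had medians of 27490 and 25526 UMIs. Cluster 13 held the platelet genes Tubb1 at 709 and 596 CPM and Pf4 at 4821 and 9537, and the 9 megakaryocyte markers together stood at 11002 and 16489. The 9 monocyte markers together went the other way there, from 803 CPM in WT to 197 in KO, beside 65.7 and 72.2 in cluster 4. The part of these differences in the histone values was not tested. Non-cycling members made up 6752 CPM in WT and 9648 in KO cells of cluster 13, the highest sum of any cluster in either library. There Hist1h1c went from 1033 to 2757 CPM (1.42) and Hist3h2a from 386 to 991 (1.36). The 5 highest cells held 42.5% (WT) and 44.5% (KO) of the Hist1h1c UMIs and 33.4% and 35.1% of those of Hist3h2a. Without them the levels were 642 and 1614 CPM for Hist1h1c and 273 and 687 for Hist3h2a. Lower in KO in cluster 13 were Hist1h4i, from 977 to 479 CPM (-1.03, -1.21 to -0.85), and Hist1h2ac, from 1061 to 913 (-0.22, -0.36 to -0.07). Hist3h2ba had 44 UMIs in WT and 404 in KO, 57.3 and 509 CPM, of which the 5 highest cells held 70.5% and 68.6%. Without these cells its level was 17.5 and 170 CPM. In cluster 4, Hist1h1c had a ratio of -0.10, Hist3h2a of 0.54 and Hist3h2ba of -0.21. Without cluster 13 the non-cycling ratio of the class was 0.13, and at resolution 2 of the clustering it was 0.18. At resolution 2 a low-UMI cluster with Slc6a4 and Tubb1 among its top genes (114 WT and 116 KO cells) was unnamed. The class at that resolution therefore lacked it.

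**Figure D4:**
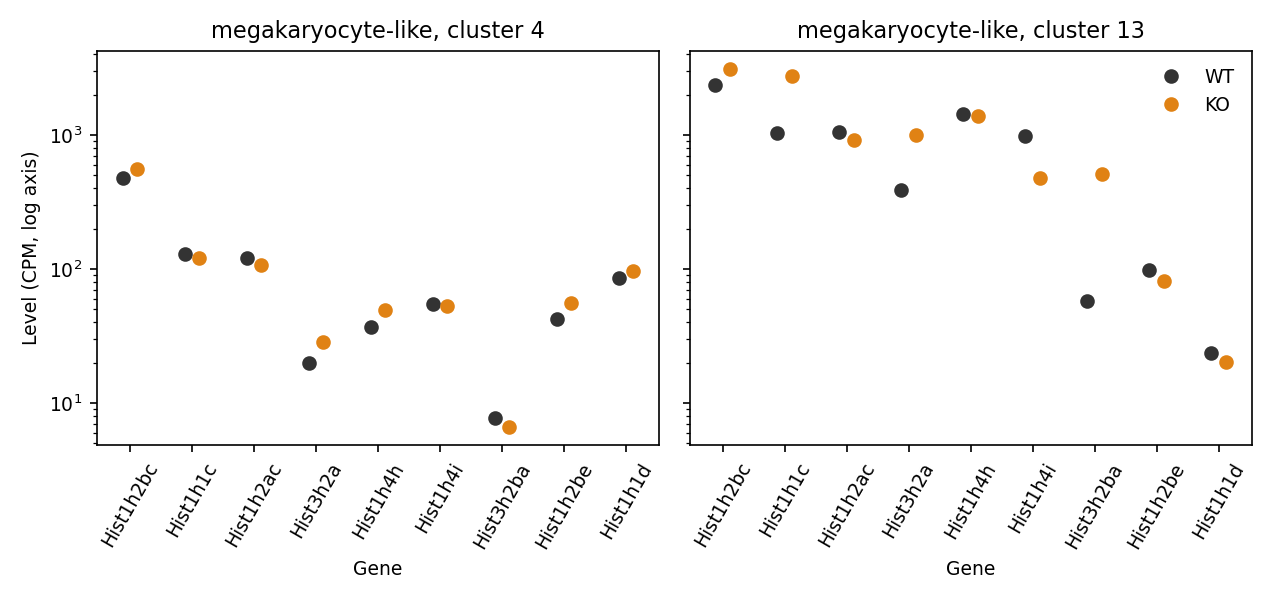
Level in CPM (log axis) of single histone cluster genes in the 2 megakaryocyte-like clusters, cluster 4 and cluster 13, for the WT and the KO library. Hist1h1c, Hist3h2a and Hist3h2ba are higher in KO in cluster 13, and Hist1h1c and Hist3h2ba are not in cluster 4.

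Neutrophil progenitor-like cells (245 WT and 235 KO, cluster 9) had higher S phase histone levels in KO. Their sum was 1844 CPM in WT and 3270 in KO, a log2 ratio of 0.83 (0.80 to 0.86), while the S list had 0.24 (0.21 to 0.26) and the G2/M list 0.18. All 22 S phase members at 10 CPM were above 0. At least 1.5-fold higher were 18 of these 22, 6 of 13 between and 3 of 10 non-cycling members (Hist1h4h, Hist1h1d and Hist1h2be), beside 2.22% of 7244 genes, and no member was 1.5-fold lower, beside 1.6%. The linker histone gene Hist1h1b went from 214 to 582 CPM (1.45, 1.36 to 1.53), Hist1h3c from 21.4 to 53.3 (1.32, 1.04 to 1.60) and Hist1h2af from 17.1 to 41.9 (1.29, 0.98 to 1.61). Hist1h2ap went from 937 to 1397 (0.58, 0.53 to 0.62). The non-cycling sum was 604 and 724 CPM (0.26, 0.20 to 0.32), with Hist1h2bc at 158 and 162 (0.03, -0.09 to 0.15), Hist1h2ac at 140 and 124 (-0.17, -0.30 to -0.04) and Hist1h1c at 72.0 and 82.5 (0.20, 0.02 to 0.37).

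Of neutrophil progenitor-like cells, 23 of 245 were S-high in WT, 9.39% (6.04 to 13.8), and 46 of 233 in KO, 19.7% (14.8 to 25.4). Without thinning the shares were 5.71% and 13.6%. Within them the S phase sum was 2517 and 4215 CPM (0.74, 0.67 to 0.82). Granule genes of the same cells also differed: Ngp had 130 CPM in WT and 562 in KO, Camp at 857 and 1728, S100a8 at 28523 and 38646, and Elane at 13399 and 9896. All 12 neutrophil markers were detected in both libraries, together 81200 and 99160 CPM. Their part in the histone values was not tested. Cluster 10 (320 WT and 133 KO cells), with Elane, Gfi1 and Cebpe among its top genes, was unnamed and so outside the class. With doublets kept, the class held a cluster of 404 WT and 190 KO cells with Elane and Gfi1 among its top genes. The ratio of the S phase sum was then 0.42, in a class of 642 WT and 419 KO cells. At resolution 0.5 it was 0.46, in 654 and 399 cells. It was above 0 under every alternative run.

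In the smaller classes the S phase sum of erythroid-like cells (263 WT and 91 KO) was 4744 and 5084 CPM, a ratio of 0.10, with S-high shares of 57.2% and 51.1%. Hist1h2bc stood there at 81.1 and 102 CPM (0.34, 0.18 to 0.49) and Hist1h1c at 92.2 and 119 (0.37, 0.22 to 0.51). The basophil or mast cell-like cells (155 and 119) had an S phase sum of 1377 and 2193 (0.67) and a non-cycling sum of 1183 and 1625 (0.46), with Hist1h2ac at 196 and 272 (0.48, 0.28 to 0.67). Of these cells, 7 of 152 were S-high in WT, 4.61% (1.87 to 9.26), and 13 of 114 in KO, 11.4% (6.21 to 18.7). B cell-like cells (70 and 51) had an S phase sum of 3432 and 226 CPM from 1794 and 76 UMIs. There the S-high cells were 6 of 36 in WT and 0 of 33 in KO, which allows a share of up to 9.09%. Of the 747 WT UMIs of Hist1h2ap in B cell-like cells, 5 cells held 79.8%, and without each library's 5 highest cells its level was 347 CPM in WT and 23.9 in KO.

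**Figure D5:**
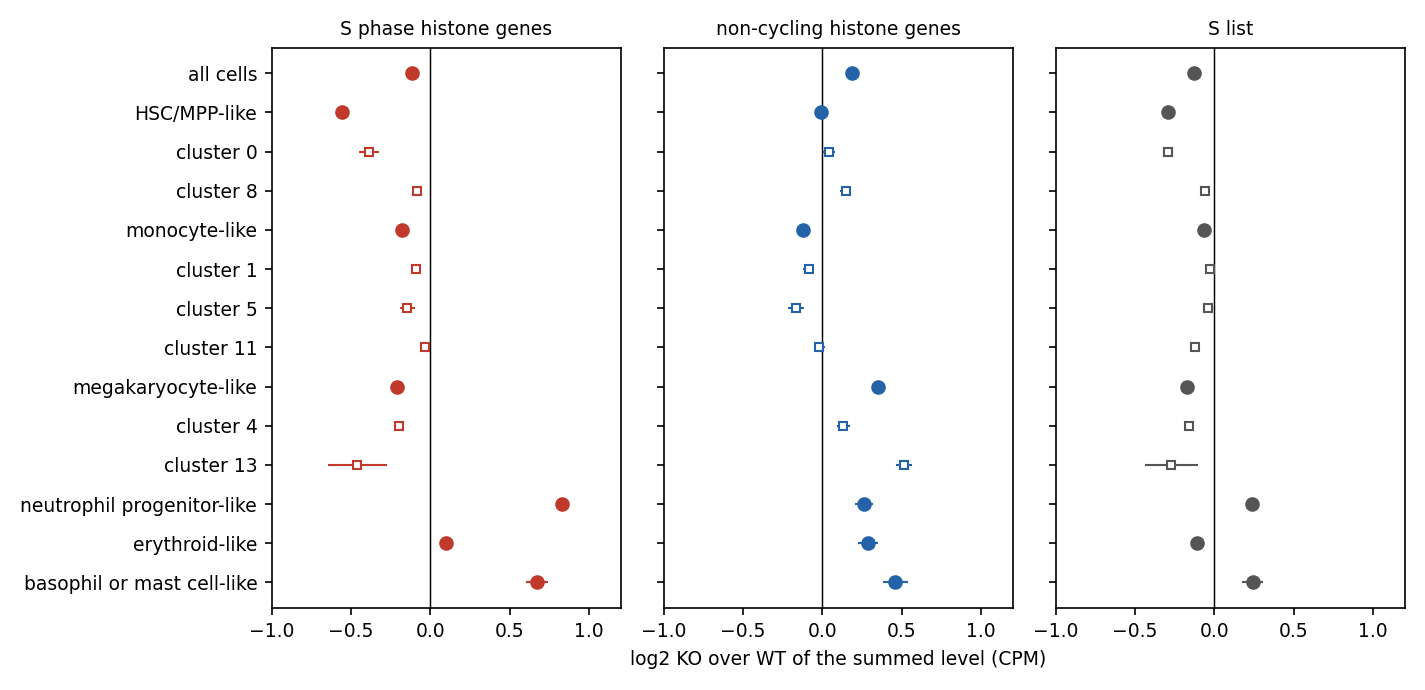
The log2 ratio of KO over WT (x axis) of the summed level of S phase histone genes, non-cycling histone genes and the S list, with exact 95% counting intervals, in all cells and 6 classes (circles) and in the clusters of the classes that join several (squares). The S phase histone sum lies below 0 in HSC/MPP-like cells (-0.56) and above 0 in neutrophil progenitor-like cells (0.83), where the S list lies at 0.24, and the ratio of the non-cycling sum is highest in cluster 13 (0.51) among the rows drawn.

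The genes that make, process and carry histones were given from a list of 26, and the histone variants outside the clusters from a list of 11. Over all cells none was 1.5-fold higher or lower among those at 10 CPM. The median ratio was 0.00 over 12 genes of histone transcription and 3′ end processing, -0.09 over 13 chaperone and assembly genes and -0.10 over 10 variants. Slbp, which binds the stem-loop, stood at 132 and 117 CPM (-0.17, -0.20 to -0.13), with S phase folds of 4.93 and 4.62. Cpsf2, a subunit of the cleavage machinery, had -0.23. The chaperone genes Asf1a, at 66.1 and 51.1 CPM (-0.37, -0.42 to -0.32), and Nasp, at 207 and 164 (-0.34, -0.37 to -0.31), were lower in KO, as was Chaf1b of the chromatin assembly factor (-0.32). Daxx, a chaperone of the replacement histone H3.3, had 0.19. Among variants, H2afz stood at 1954 and 1740 CPM (-0.17, -0.18 to -0.16), H1f0, the linker histone of differentiated cells, at 76.4 and 63.7 (-0.26, -0.31 to -0.22), and the centromeric Cenpa at 109 and 92.1 (-0.24). H3f3b had -0.14. In HSC/MPP-like cells all 10 variants were below 0, with a median of -0.29, and 1 was at least 1.5-fold lower, H1f0 (-0.66), beside 1.63% of 8671 genes. That class joins clusters 0 and 8, whose mix differed between the libraries.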

How the data were processed

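The values are deposited raw UMI counts, 1 for each gene and barcode, which the authors made with Cell Ranger 6.0.2 per the file headers and 3.0.1 per the submitters' processing notes, on GRCm38. Cells with fewer than 500 genes (51 WT and 32 KO) or over 10% mitochondrial UMIs (553 and 314) were left out, as were the cells with the highest Scrublet scores, 0.8% per 1000 barcodes (199 and 207 cells). Both libraries were clustered together without integration on 2000 variable genes, without histone, mitochondrial, ribosomal protein, haemoglobin or sex-linked genes, with 30 principal components, 15 neighbours and Leiden resolution 1. A cluster was named when its class's markers had a median log2 fold of at least 1 and at least 3 markers, and no fewer than the number not found, were found in 25% of its cells. No other class could have more markers among the cluster's top 10 genes. A cluster with median UMIs under 1/3 of the library median also needed a marker of the class among those genes. Levels are summed UMIs per 1000000, with exact Poisson intervals, and ratios have exact conditional binomial 95% intervals. Shares of cells have Clopper-Pearson intervals, and a share of 0 a limit of 3 cells of the total. There is no p-value, because cells of 1 library are not replicates.

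Calls are at 1.5-fold and a mean of 10 CPM. The 5000-UMI thinning left out 243 WT and 199 KO cells. Named in full were Hist1h2bc, Hist1h2ac and Hist1h1c, up to 6 members per group with the most UMIs, up to 3 per main class (200 cells or more in each library) and direction at 20 CPM, up to 4 genes of each supply and variant list, Slbp, H2afz and Phf6. Others were named after their values were seen. The members and all lists were chosen with earlier results of these data known. Alternatives were stricter cell filters, doublets kept, other resolutions, clustering without the S, G2/M and histone supply lists, edgeR and DESeq2 scaling, a mean over cells, other minimum levels and a single 2-fold boundary. On simulated counts for 8576 genes over all cells, the intervals held the true ratio for 94% of 200 changed genes and 94.8% of the others. Those counts were drawn as Poisson, without clumping of UMIs in single cells or spread between mice. The shares therefore check the computation only and do not carry over to the real data. Tools were R 4.3.3 with edgeR 4.0.16 and DESeq2 1.42.0, and Python 3.11.15 with scanpy 1.11.5, leidenalg 0.10.2, scikit-learn 1.9.0, pandas 2.3.3, scipy 1.17.1 and numpy 2.4.6.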

Additional observations from a re-analysis of the deposited data

Results flagged for a closer look

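The S phase histone sum had a log2 ratio of KO over WT of -0.56 in HSC/MPP-like cells and of 0.83 in neutrophil progenitor-like cells, so the classes lay on opposite sides of 0. The non-cycling sum likewise had -0.13 in monocyte-like and 0.35 in megakaryocyte-like cells. Neither difference between classes was tested, since each class is from the same 2 libraries. The megakaryocyte-like value was 0.13 without cluster 13. The HSC/MPP-like value was -0.23 with clusters 0 and 8 weighted alike and -0.25 under stricter cell filters. It was -0.04 when cells were clustered without the S, G2/M and histone supply lists, in a class changed to 320 WT and 723 KO cells. The neutrophil progenitor-like value was 0.42 with doublets kept and 0.46 at resolution 0.5.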

How the results depend on the processing

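No paired analysis was possible because each genotype has 1 library and no result comes from a test. Of 108 values recomputed under the other settings, 61 moved by more than their counting interval or, for counts of genes, by more than 1.5 times, and none reversed a value whose interval excluded 0. Counts of members past 1.5-fold do not depend on the grouping, so under the single 2-fold boundary they could not move. The 14 values from alternatives chosen after seeing the data (without cluster 13, without cluster 18, clusters 0 and 8 weighted alike) included 6 that moved. Unless said otherwise the cause was not tested. All values are log2 ratios of KO over WT. Stricter filters (1000 genes, 5% mitochondrial UMIs) gave S phase sums of -0.13 (all cells), -0.25 (HSC/MPP-like), -0.14 (monocyte-like), -0.17 (megakaryocyte-like) and 0.78 (neutrophil progenitor-like), and non-cycling sums of 0.13 (HSC/MPP-like), 0.38 (megakaryocyte-like) and 0.32 (neutrophil progenitor-like). With doublets kept the S phase values of the 4 classes, in the same order, were -0.48, -0.08, -0.14 and 0.42, and the non-cycling values of HSC/MPP-like, monocyte-like and neutrophil progenitor-like cells 0.03, -0.05 and 0.10. At resolution 0.5 S phase sums were -0.45 (HSC/MPP-like), -0.14 (monocyte-like) and 0.46 (neutrophil progenitor-like), and non-cycling sums 0.05 and 0.10 in HSC/MPP-like and neutrophil progenitor-like cells. At resolution 2 the S phase values of the 4 classes were -0.53, -0.17, -0.16 and 0.76, and non-cycling values 0.03 (HSC/MPP-like), 0.18 (megakaryocyte-like) and 0.18 (neutrophil progenitor-like). Clustering without the S, G2/M and histone supply lists gave S phase -0.04 (HSC/MPP-like), -0.28 (megakaryocyte-like) and 0.57 (neutrophil progenitor-like). Non-cycling values were 0.09, -0.17 and 0.16 in HSC/MPP-like, monocyte-like and neutrophil progenitor-like cells. The HSC/MPP-like class then held 320 WT and 723 KO cells, so its values are not of the same cells. With edgeR TMM factors, S phase sums were -0.18 (all cells), -0.61, -0.26 and 0.87 (HSC/MPP-like, megakaryocyte-like, neutrophil progenitor-like) and non-cycling sums 0.12 (all cells), -0.06 and 0.30 (HSC/MPP-like, megakaryocyte-like). With DESeq2 size factors these were -0.20, -0.62, -0.28 and 0.88, and 0.10, -0.07 and 0.28. TMM and DESeq2 scaling shifted all ratios over all cells by -0.07 and -0.08. The mean over cells gave S phase -0.14 (all cells), -0.64, -0.25 and 0.96 (HSC/MPP-like, megakaryocyte-like, neutrophil progenitor-like), and non-cycling 0.29 (megakaryocyte-like). One boundary at 2-fold gave S phase -0.05 (all cells), -0.47, -0.13 and -0.12 (HSC/MPP-like, monocyte-like, megakaryocyte-like), and non-cycling 0.16 (all cells), -0.04 (HSC/MPP-like) and 0.31 (megakaryocyte-like). Clusters 0 and 8 weighted alike gave -0.23 (S phase) and 0.09 (non-cycling) in HSC/MPP-like cells. Without cluster 13 the non-cycling sum was 0.16 in all cells and 0.13 in megakaryocyte-like cells. Without cluster 18 the S phase and non-cycling sums of all cells were -0.14 and 0.17. The count of members 1.5-fold higher over all cells, 0, became 1 with a mean over cells (Hist3h2a) and 2 with no minimum level (Hist3h2ba and Hist2h2aa2, the latter on 2 and 7 UMIs), and the count lower was 0 throughout. The split gave 26 to 29 S phase and 8 to 12 non-cycling members. Without cluster 13, Hist4h4, Hist1h2br and Hist1h4h were no longer non-cycling, and Hist1h2bn, Hist1h2bp and Hist1h4b became S phase members. Depth limits the 5 members with under 50 UMIs in a library, and 1 library per genotype limits all else.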
